A study of Danio rerio with 8 samples.

Results

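The 75 zebrafish genes whose names begin with mrpl or mrps and a digit encode proteins of the mitochondrial ribosome. Their transcripts were measured by RNA sequencing in cells of ddx21 mutants and their siblings, sorted for reporters of venous and lymphatic endothelium. Markers of other cell types were also present, as given below. The 75 genes were chosen by name alone, with no use of measured values, from the 32520 genes of the count table. By name 47 belong to the large subunit (mrpl) and 28 to the small subunit (mrps). All 75 passed the filter on low counts, as did 18549 genes in all. The 8 libraries came from embryos at 3 days post fertilisation, 4 labelled ddx21 mutant and 4 labelled ddx21 sibling, each numbered 1 to 4. Cells of both groups carried the reporters Tg(fli1a:nEGFP), a nuclear green protein driven by an endothelial promoter, and Tg(5.2lyve1b:DsRed), a red protein driven by a promoter of veins and lymphatics, and were sorted as positive for both. The ddx21 allele, the genotype of the siblings and the number of embryos behind a library are not given in the labels, and nothing there says whether libraries of a group came from separate clutches or sorts, so that a p-value here weighs a difference against the spread of these libraries, which may be technical.

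Mitochondria carry their own ribosome, which translates the small set of respiratory chain subunits encoded by mitochondrial DNA. Its ribosomal RNAs come from mitochondrial DNA, but every one of its proteins is encoded in the nucleus, translated in the cytosol and imported. Some of these proteins have homologues in bacterial ribosomes and others are found in mitochondria alone. Ddx21 is a nucleolar RNA helicase that acts in the making of cytosolic ribosomes, which hold a separate set of proteins (rpl and rps genes).

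No mitochondrial ribosomal protein gene passed the test between genotypes, but most stood somewhat higher in mutants. Of the 75 genes 59 (78.7%) had a log2 fold change above 0, against 50.2% of all tested genes, and their median was 0.17, against 0.00 over all tested genes. With edgeR's quasi-likelihood test 0 of 75 were called at an adjusted p under 0.05 (0.0% of all tested genes), the smallest adjusted p being 1.0. Of the 75, DESeq2, limma-voom and limma-trend also called 0. Over all genes DESeq2, run without the filter on low counts, called 160 (0.492% of the 32520 genes of the count table). Over the 18549 genes that passed the filter limma-voom called 0 and limma-trend 2 (0.0108%). The share for DESeq2 thus has another denominator. At an unadjusted p under 0.05 the test gave 3 genes higher in mutants (1.33% of all tested genes) and 0 lower (1.67%). Replicate numbers were taken to pair the libraries. With the number as a block there were 6 higher (2.98% of all tested genes) and 0 lower (2.88%), again with 0 called (0.0%).

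The size of the members' shift depended on single libraries, while its sign did not: their median stayed above 0 without any one of the 8. It was 0.31 without mutant 4, 0.11 without mutant 3 and 0.096 without sibling 4, and the number of genes above 0 ran from 49 to 66 of 75 when each library was left out in turn. The number at an unadjusted p under 0.05 in that direction was 7 without mutant 4, 2 without mutant 2, 1 without mutant 1 or mutant 3, and 0 without sibling 3 or sibling 4. Over all genes tested in the same fits the share in that direction was 1.66% without mutant 4, 1.14% without mutant 2, 0.961% without mutant 1, 1.17% without mutant 3 and 1.13% without sibling 3 or sibling 4. Of the 75 genes 43 had a standard error under 0.3 on the log2 scale, and the fold changes lay between -0.38 and 0.74. Among all tested genes 39.7% had an absolute log2 fold change above 0.5, and among the members 9.33% did (7 genes). Among the 6878 tested genes whose mean level lay between the 5th and the 95th percentile of the members', 56.3% were above 0 and the median was 0.06.

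**Figure D1:**
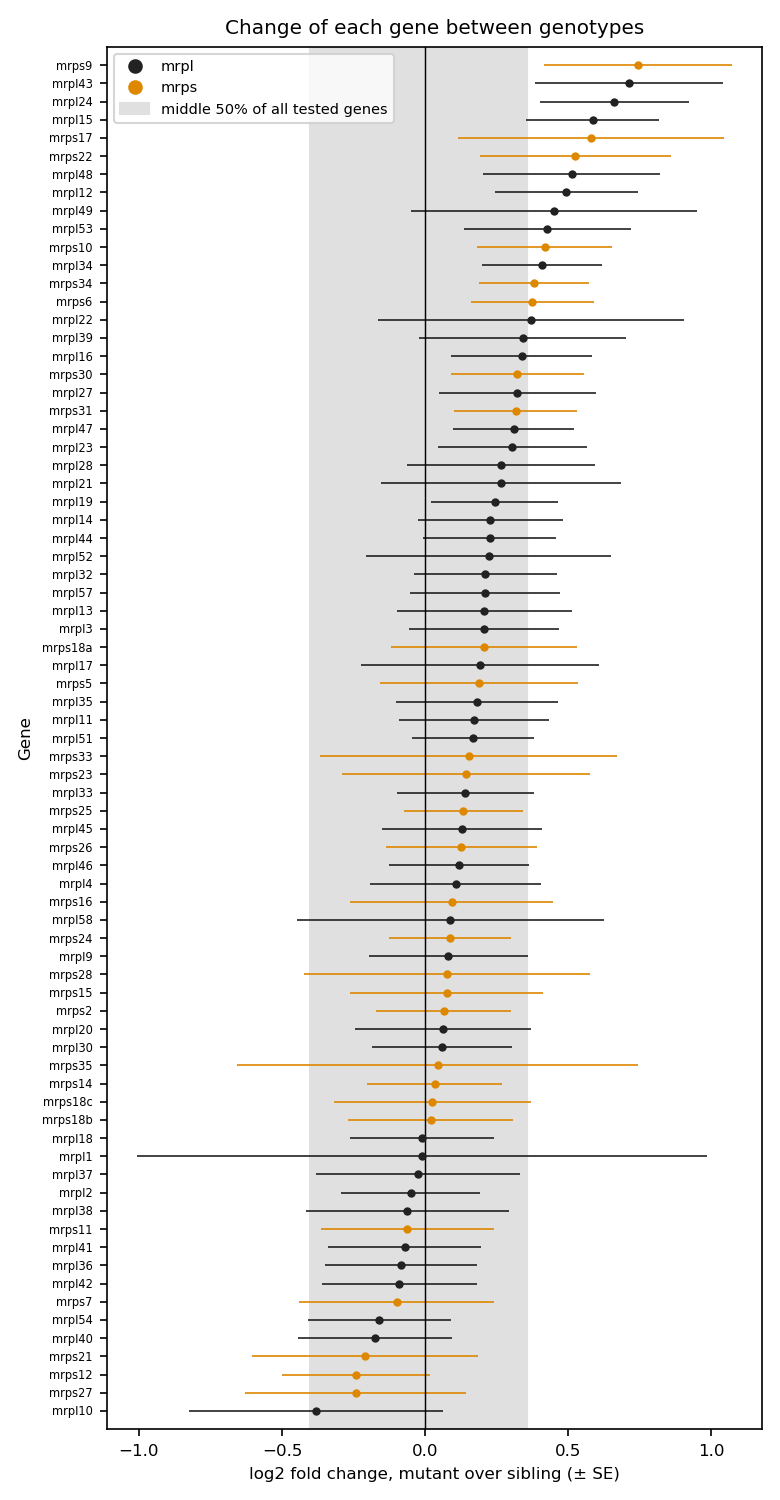
Log2 fold change of each of the 75 genes, mutant over sibling (horizontal axis, points with bars of 1 standard error, edgeR fit over 4 against 4 libraries), ordered by size, with mrpl genes in black and mrps genes in orange. The grey band holds the middle 50% of all 18549 tested genes. The points run from -0.38 for mrpl10 to 0.74 for mrps9, and 59 lie above 0.

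Summed over the 75 genes, the level was 2892, 3133, 2727 and 2469 CPM (read counts scaled to the size of the library) in siblings 1 to 4 and 3354, 3340.3, 3612 and 2549 CPM in mutants 1 to 4. These CPM are scaled by TMM factors, and on that scale mutants 1, 2 and 3 lay above every sibling. Mutant 4 lay below siblings 1, 2 and 3, so the groups overlapped. Over the 4 libraries of each group (mean ± SD) the siblings held 2805 ± 280 CPM and the mutants 3214 ± 460.4 CPM. As a share of all counted reads, without those factors, the members held 0.227% to 0.313% in siblings and 0.278% to 0.386% in mutants. The order of libraries then differed. Sibling 1 (0.3130%) lay above mutant 1 (0.3125%) and mutant 2 (0.309%), and mutant 4 (0.278%) lay above sibling 3 (0.274%) and sibling 4. In such bulk libraries more of a transcript per cell and more cells of a type that is rich in it cannot be told apart.

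For both subunits mutants 1, 2 and 3 lay above all siblings in TMM-scaled CPM. Mutant 4 was the lowest of the 8 libraries for the large subunit and lay above sibling 4, the lowest, for the small one. The large subunit genes summed to 1606.7 to 2054 CPM in siblings and 1592 to 2384 CPM in mutants, and the small subunit genes to 862 to 1079 CPM and 957 to 1228 CPM. The ratio of the former sum to the latter had a mean ± SD over 4 libraries of 1.81 ± 0.10 in siblings and of 1.81 ± 0.13 in mutants, a difference far smaller than the spread between libraries. The median log2 fold change was 0.20 over the 47 mrpl genes, of which 36 were above 0, and 0.11 over the 28 mrps genes, of which 23 were above 0. The former median was 0.12 without mutant 3, 0.13 without sibling 3 or sibling 4 and 0.32 without mutant 4. Without sibling 4 the latter median was 0.036, without mutant 3 it was 0.073, without sibling 2 it was 0.18 and without mutant 4 it was 0.25. In a list drawn from the ribosomal protein nomenclature 44 genes were marked as having a counterpart in the bacterial ribosome (median 0.18). The other 31, with mrps18a, mrps18b and mrpl47 among them, were not marked (median 0.15). The marking is incomplete, since mrps18a and mrps18b are homologues of the bacterial protein S18, and mrpl47 may also be wrongly unmarked. These medians therefore follow the marking and do not split the genes cleanly by homology. The difference between these medians was not tested.

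**Figure D2:**
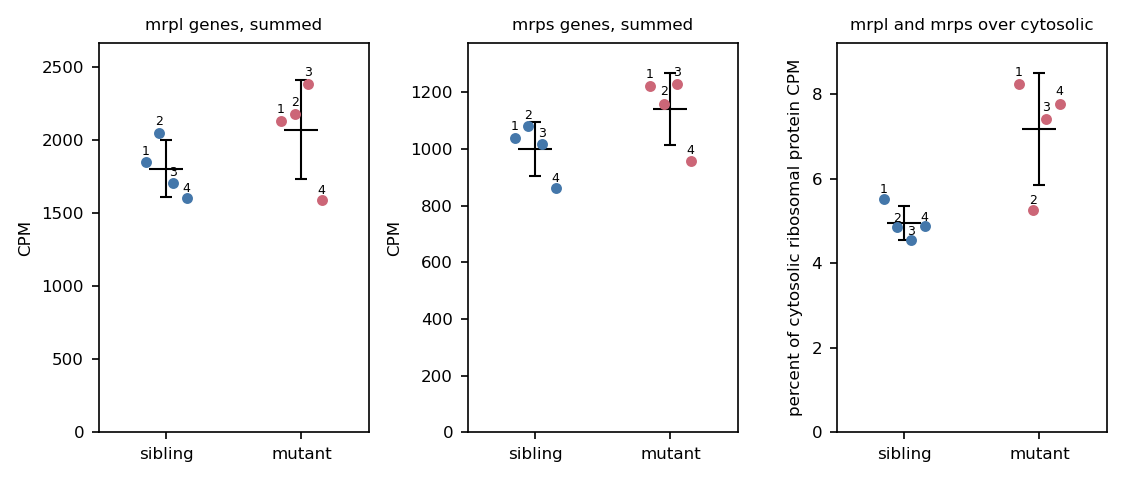
Summed CPM of the 47 mrpl genes and of the 28 mrps genes in each library, and the sum of all 75 as a percent of the summed CPM of 79 cytosolic ribosomal protein genes (vertical axes, all starting at 0). Points are libraries with their replicate number, and bars are the mean ± SD of 4. In both sums, which are on the TMM scale, mutants 1, 2 and 3 lie above all siblings and mutant 4 lies lowest of the mutants.

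Within pairs of the same number the members' shift was uneven. In pair 3 the mutant was higher for 62 of 75 genes, with a median difference of 0.47 in log2(CPM + 0.5). In pairs 1 and 2 it was higher for 48 genes each, with medians of 0.15 and 0.11. In pair 4 it was higher for 40 genes, with a median of 0.02. These values are on the TMM scale. Its factors were 0.933 in mutant 1 and 1.085 in sibling 1, and 1.091 in mutant 4 and 0.922 in sibling 4. As a share of all counted reads the members held 0.3125% in mutant 1 and 0.3130% in sibling 1. In pairs 2, 3 and 4 that share was 0.309%, 0.386% and 0.278% in the mutant and 0.307%, 0.274% and 0.227% in the sibling. Over all tested genes the 4 pair medians ran from -0.10 to 0.01, and the share higher in the mutant from 45.4% to 50.9%. Over the tested genes in the members' CPM range the medians were 0.06, 0.07, 0.03 and 0.02 in pairs 1 to 4. The shares higher were 53.4%, 55.1%, 51.6% and 51.1%. In pair 4 the members, with 53.3% higher, were close to that range. The large subunit genes made up most of the shift in pair 3 (41 of 47 higher, median 0.56) and had a median of 0.00 in pair 4 (23 of 47 higher), while the small subunit genes had medians of 0.15, 0.16, 0.23 and 0.16 in pairs 1 to 4.

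On the TMM scale the mutant was higher in 4 of 4 pairs for 15 of the 75 genes (20%, against 8.0% of all tested genes). It was lower in 4 of 4 for 1 (1.33%, against 9.53%). The 15 were mrpl12, mrpl15, mrpl16, mrpl22, mrpl24, mrpl27, mrpl32, mrpl43, mrpl47, mrps6, mrps9, mrps10, mrps22, mrps31 and mrps34. The 1 was mrps27. By share of all counted reads, without the TMM factors, some of these signs turned. For mrpl47 mutant 1 held 1348 of 44807285 reads and sibling 1 held 1220 of 38459219, a lower share in the mutant. For mrpl24 mutant 2 held 1349 of 47671942 reads and sibling 2 held 1192 of 41456367, also a lower share in the mutant. The share was lower in the mutant for mrpl22 in pairs 1 and 2, for mrpl32 in pair 1 and for mrps22 in pair 2 as well. For mrps27 mutant 4 held 1385 of 51173007 reads and sibling 4 held 1202 of 50569923, a higher share in the mutant. In 2 genes, mrpl15 and mrps34, the lowest mutant exceeded the highest sibling in TMM-scaled CPM (2.67%, against 1.42% of all tested genes). In 0 every mutant lay below (1.83% of all tested genes). By share of all counted reads the groups overlapped for mrps34.

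**Figure D3:**
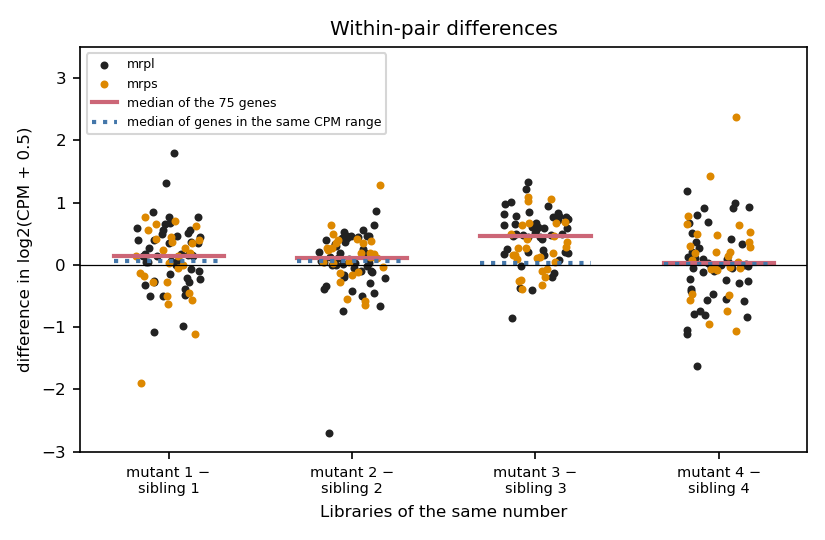
Difference in log2(CPM + 0.5) between mutant and sibling of the same replicate number (vertical axis) for each of the 75 genes, with mrpl genes in black and mrps genes in orange; points are spread sideways for legibility. Solid lines are the medians of the 75 genes (0.15, 0.11, 0.47 and 0.02 in pairs 1 to 4) and dotted lines the medians of the 6878 tested genes in the same range of CPM.

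The genes with the smallest p in the higher direction were spread over both subunits. The gene mrpl24 (ENSDARG00000019222), a homologue of a bacterial protein that sits at the exit of the peptide tunnel, measured 33.8, 29.3, 23.8 and 25.4 CPM in siblings 1 to 4 and 57.9, 30.6, 40.7 and 48.4 CPM in mutants 1 to 4. Mutant 2 lay within the range of the siblings and the other mutants above it. The log2 fold change was 0.66 (SE 0.26, edgeR adjusted p = 1.0), and it was 0.31 without mutants 1 and 4 and sibling 4. This gene overlaps mllt11 in the RefSeq annotation, so reads may be shared between them.

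For mrpl15 (ENSDARG00000101306), a homologue of a protein in the core of the bacterial large subunit, siblings held 48.9, 56.9, 47.5 and 32.3 CPM and mutants 62.6, 68.1, 86.4 and 61.3 CPM. Every mutant lay above every sibling, with a log2 fold change of 0.59 (SE 0.23, edgeR adjusted p = 1.0). It overlaps an uncharacterised gene in that annotation.

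The small subunit gene mrps34 (ENSDARG00000057910), which has no bacterial homologue and is mutated in a form of human Leigh syndrome, held all mutants above all siblings on the TMM scale. Its levels were 72.7, 70.3, 67.3 and 54.0 CPM in siblings and 96.8, 75.8, 95.3 and 76.6 CPM in mutants. The log2 fold change of 0.38 (SE 0.19, edgeR adjusted p = 1.0) was small, and mutant 2 stood only slightly above sibling 1. By share of all counted reads mutant 2 (3342 of 47671942) lay below sibling 1 (3026 of 38459219), so there the groups overlapped.

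The largest fold change belonged to mrps9 (ENSDARG00000061505), whose bacterial homologue reaches towards the transfer RNA in the P site. Siblings held 41.4, 20.4, 36.3 and 25.3 CPM and mutants 70.6, 50.2, 56.9 and 29.0 CPM. Mutant 4 lay among the siblings, and the other mutants lay above them (log2 0.74, SE 0.33, edgeR adjusted p = 1.0).

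For mrpl43 (ENSDARG00000076334), a large subunit protein without a bacterial homologue, siblings measured 11.9, 21.1, 13.1 and 11.6 CPM and mutants 20.7, 33.2, 21.8 and 18.9 CPM. Sibling 2 stood apart from the other siblings and mutant 2 from the other mutants, and within each pair the mutant was higher. The log2 fold change was 0.71 (SE 0.33, edgeR adjusted p = 1.0).

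The ribosomal stalk, the flexible arm of the large subunit that recruits translation factors, showed no common direction. Its protein mrpl12 (ENSDARG00000038768), which is also known in mammals to bind the mitochondrial RNA polymerase, measured 70.4, 64.3, 64.1 and 44.9 CPM in siblings and 104, 95.1, 90.0 and 54.3 CPM in mutants. Mutants 1, 2 and 3 lay above all siblings and mutant 4 below siblings 1, 2 and 3 (log2 0.49, SE 0.25, edgeR adjusted p = 1.0, and 0.78 with the block). The gene of its anchor on the ribosome, mrpl10, measured 12.0, 9.81, 6.43 and 15.6 CPM in siblings and 5.80, 6.76, 10.6 and 10.5 CPM in mutants, with overlapping groups and the lowest fold change of all members (log2 -0.38, SE 0.44). For mrpl11, whose bacterial homologue lies at the stalk base, the fold change was 0.17 (SE 0.26), with 45.4 to 64.6 CPM in siblings and 34.3 to 71.1 CPM in mutants.

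**Figure D4:**
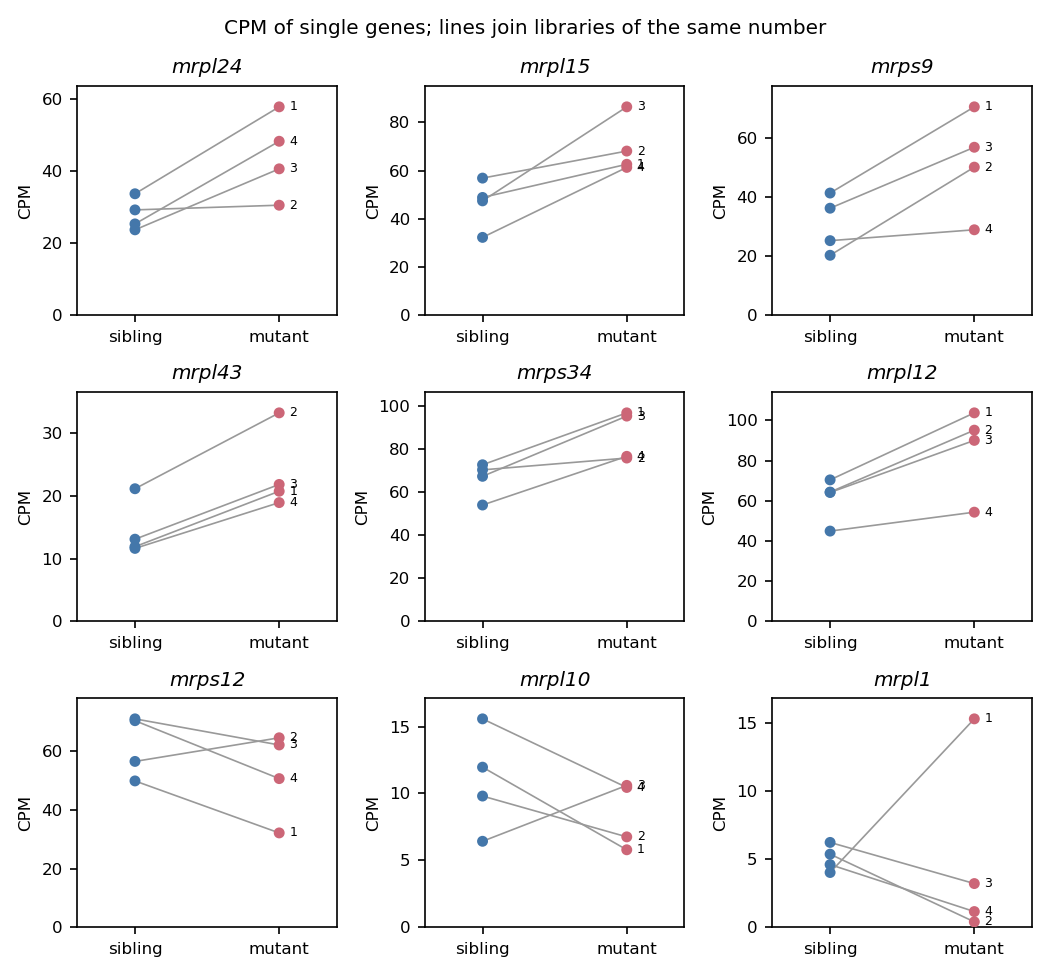
CPM (vertical axes, starting at 0) of 9 genes in each library, with lines that join sibling and mutant libraries of the same number, which is printed beside the mutant. The first 6 are the genes with the smallest p in the higher direction, mrps12 and mrpl10 the pair with the smallest p in the lower direction, and mrpl1 the member with the largest fold between its highest and lowest library. On this TMM scale all mutants lie above all siblings in mrpl15 and mrps34.

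In the decoding part of the small subunit, mrps12 (ENSDARG00000089836), a homologue of the bacterial protein that monitors codon pairing, measured 49.8, 56.5, 70.9 and 70.3 CPM in siblings and 32.1, 64.5, 62.1 and 50.6 CPM in mutants. The groups overlapped, mutant 1 alone lying below all siblings (log2 -0.24, SE 0.26, edgeR adjusted p = 1.0). The fold change was 0.11 without mutants 1 and 4 and sibling 4. The small subunit genes mrps2, mrps5 and mrps16, all with bacterial homologues, gave 0.06 (SE 0.24), 0.19 (SE 0.34) and 0.09 (SE 0.35), with overlapping groups in each. The gene mrps22, mitochondria-specific and mutated in human respiratory chain disease, measured 14.5, 19.9, 15.3 and 10.6 CPM in siblings and 17.7, 20.6, 31.7 and 16.8 CPM in mutants. On the TMM scale its mutant was higher in 4 of 4 pairs, but sibling 2 lay above mutants 1 and 4 (log2 0.53, SE 0.33).

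Vertebrates have several homologues of the bacterial small subunit protein S18, named mrps18a, mrps18b and mrps18c, of which the first lies in the large subunit in mammals. Their fold changes were 0.20 (SE 0.33), 0.02 (SE 0.29) and 0.03 (SE 0.35). The means (± SD, n = 4) of mrps18a were 33.8 ± 7.28 CPM for siblings against 39.0 ± 13.7 CPM for mutants, and those of mrps18b were 38.6 ± 5.93 CPM against 39.2 ± 13.2 CPM, each difference being smaller than the spread. For mrps18c the siblings averaged 14.7 ± 1.73 CPM, and the mutants differed from them by less than that SD. Mutant 4 was the lowest library for mrps18a and mrps18b (18.5 and 22.6 CPM) and for mrps18c (9.66 CPM). The gene mrps30, also placed in the large subunit in mammals, had a fold change of 0.32 (SE 0.23) and one of -0.06 without mutants 1 and 4 and sibling 4. Its levels were 117, 116, 114 and 85.3 CPM in siblings and 186, 96.0, 124 and 136 CPM in mutants.

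Other members with a negative fold change were close to 0. The smallest p among them after mrps12 and mrpl10 belonged to mrpl40 (log2 -0.18, SE 0.27), which in humans lies in the region lost in 22q11 deletion syndrome, mrpl54 (-0.16, SE 0.25), the RNA-binding protein gene mrps27 (-0.24, SE 0.39) and mrps21 (-0.21, SE 0.40). For mrps27 siblings held 15.1, 24.0, 11.6 and 25.8 CPM and mutants 13.8, 15.2, 10.8 and 24.8 CPM. Each mutant was lower than its sibling on the TMM scale, and the groups overlapped. For mrpl54 and mrps21 the sign turned without mutants 1 and 4 and sibling 4 (0.04 and 0.12).

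Levels are in CPM, which are not divided by transcript length and are therefore not ranked between genes. Mean levels ran from 5.05 to 122 CPM with a median of 36.4, and 69 of 75 genes exceeded 10 CPM. No gene was at 0 reads in any library, while 73.3% of all tested genes had reads in all 8. The lowest count of any member in a library was 18 reads. The members with the most reads were mrps30, mrpl16, a homologue of a bacterial protein near the peptidyl transferase centre (log2 0.34, SE 0.25), mrpl23 at the tunnel exit (0.30, SE 0.26), mrpl2 at the peptidyl transferase centre (-0.05, SE 0.24) and mrps34. Those with the fewest were mrpl1, mrps28, mrpl52, mrpl58 and mrpl10.

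The L1 stalk gene mrpl1 (ENSDARG00000054606), whose bacterial homologue helps to release spent transfer RNA, had the largest fold between libraries. It measured 4.04, 5.38, 6.25 and 4.62 CPM in siblings and 15.3, 0.408, 3.22 and 1.17 CPM in mutants. Mutant 1 was above and the other mutants were below all siblings, a fold of 37.5 between the highest and the lowest library. Its log2 fold change was -0.01 (SE 1.0), with -1.28 in the fit with the block and values from -1.66 without mutant 1 to 0.38 without mutant 2. The largest SD over the 8 libraries on the log2 scale, 1.27 against 1.26 for mrpl1, belonged to the small subunit gene mrps35 (ENSDARG00000038456), which was singled out after its values were seen. It measured 22.1, 28.0, 21.6 and 1.70 CPM in siblings and 9.99, 30.5, 24.2 and 10.9 CPM in mutants. Sibling 4 lay far below the rest, the groups overlapped, and the log2 fold change was 0.04 (SE 0.70), with -0.33 without sibling 4. For mrpl58, a peptidyl-tRNA hydrolase that frees stalled ribosomes, it was 0.09 (SE 0.54), with 5.92 to 11.9 CPM in siblings and 4.86 to 16.7 CPM in mutants. For mrps28 and mrpl52 the values were 0.08 (SE 0.50) and 0.22 (SE 0.43).

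For 64 of the 75 the highest library held less than 3 times the lowest, and for 11 it held 3 times or more. This ratio had a median of 2.21, a minimum of 1.36 for mrps24 and, after mrpl1 and mrps35, a highest value of 7.66. The median SD of log2(CPM + 0.5) within a group was 0.33 in siblings and 0.41 in mutants, against 0.61 and 0.67 over all tested genes and 0.47 and 0.52 over genes in the same range of CPM. The large subunit genes mrpl3, with a homologue near the peptidyl transferase centre, and mrpl44, which has a fold of the RNase III type and is mutated in human cardiomyopathy, gave 0.20 (SE 0.26) and 0.23 (SE 0.23). For mrpl3 sibling 3 (92.9 CPM) stood above all mutants (51.6 to 87.1 CPM). The remaining 44 genes had mean levels from 9.98 to 75.5 CPM and fold changes from -0.10 to 0.58, of which 36 were above 0 and 8 below, and none of them reached an unadjusted p under 0.05 (smallest 0.080).

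**Figure D5:**
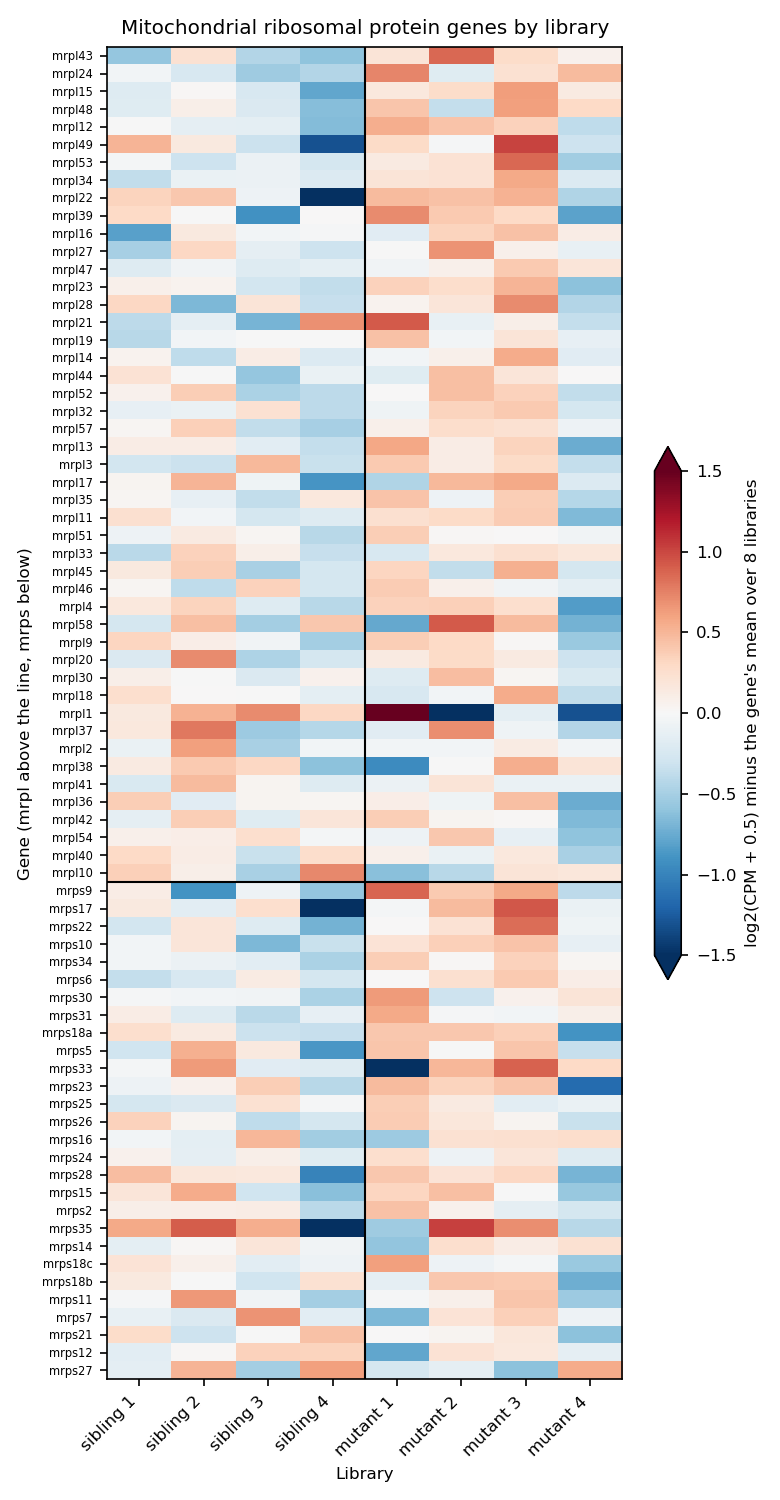
Log2(CPM + 0.5) of each of the 75 genes in each of the 8 libraries, as the difference from the gene's mean over the libraries (colour, cut at ± 1.5). Rows are ordered by fold change within mrpl (above the line) and mrps (below it). Red prevails in mutants 1, 2 and 3 and blue in sibling 4 and mutant 4.

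Across libraries the members moved with the library as much as with the genotype. The median deviation from each gene's own mean was 0.16, 0.20, 0.31 and -0.26 on the log2 scale in mutants 1 to 4 and 0.03, 0.08, -0.13 and -0.27 in siblings 1 to 4. Mutant 3 was the highest library for 23 of the 75 genes and mutant 1 for 22, while mutant 4 was the lowest for 21 and sibling 4 for 19. Mutant 4 and sibling 4 had the fewest genes with a read (18051 and 18064, against 19366 to 25329 in the others). Over all tested genes their median deviations were -0.06 and -0.07. Mutant 1 came next, with 19366 genes and a median deviation of -0.05 over all tested genes, and its members had a median deviation of 0.16. The limma-voom quality weights were lowest in sibling 4 (0.45), mutant 4 (0.49) and mutant 1 (0.62). The part of library quality in the members' values was not tested.

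Proteins of the mitochondrial ribosome that carry other names, and factors that bind to it, were counted as a list of 7 genes. Of these 6 were above 0, with a median of 0.40, and 0 were called. The gene chchd1, for a small subunit protein, measured 37.1, 37.9, 28.4 and 32.6 CPM in siblings and 64.4, 76.4, 48.9 and 36.4 CPM in mutants, with mutant 4 within the siblings (log2 0.73, SE 0.26, edgeR adjusted p = 1.0). For ptcd3, an RNA-binding protein of the small subunit, siblings held 17.9, 13.3, 17.5 and 12.8 CPM and mutants 23.7, 20.9, 19.4 and 22.8 CPM. All mutants lay above all siblings, as for 1.42% of all tested genes (log2 0.50, SE 0.27). For dap3, a GTP-binding small subunit protein, the fold change was 0.40 (SE 0.24).

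The wider machinery of mitochondrial gene expression gave no called gene either. Of 41 assembly and RNA processing factors 26 were above 0 (median 0.13). At an unadjusted edgeR p under 0.05, 0 were higher and 0 lower, against 1.33% and 1.67% of all tested genes. The smallest p belonged to the assembly GTPase gene mtg1, which was lower (log2 -0.37, SE 0.22). Of 18 translation factors 11 were above 0 (median 0.17), among them guf1, a ribosome-dependent GTPase (log2 0.97, SE 0.45, edgeR adjusted p = 1.0), and tufm, the elongation factor that brings transfer RNA to the ribosome (0.34, SE 0.24). Of 22 aminoacyl-tRNA synthetases 17 were above 0 (median 0.37). The lowest p there was that of kars1, which makes both the cytosolic and the mitochondrial lysyl-tRNA synthetase (log2 0.60, SE 0.23, edgeR adjusted p = 1.0).

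Genes for the upkeep and transcription of mitochondrial DNA did not share this direction, with 15 of 33 above 0 and a median of -0.02. Of the 33, 2 were lower and 0 higher at an unadjusted edgeR p under 0.05 (1.67% and 1.33% of all tested genes). The genes named here were picked from the list by smallest p. For tfam, which packages mitochondrial DNA and starts its transcription, siblings held 85.7, 72.8, 96.8 and 79.9 CPM and mutants 63.2, 65.5, 62.4 and 58.7 CPM. Every mutant lay below every sibling, as for 1.83% of all tested genes, without passing the test (log2 -0.42, SE 0.18, edgeR adjusted p = 1.0). The same held for gabpb1, a subunit of the GA-binding protein, a factor known in mammals to activate nuclear genes for mitochondrial proteins. It measured 7.86, 8.31, 16.3 and 11.1 CPM in siblings and 3.95, 3.31, 7.11 and 5.0 CPM in mutants (log2 -1.17, SE 0.49, edgeR adjusted p = 1.0).

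Of 38 protein import genes 28 were above 0 (median 0.31), and the one with the smallest p, romo1, encoding a small inner membrane protein, was lower (log2 -0.70, SE 0.24), followed by timm44 of the import motor (0.48, SE 0.21). Of 90 nuclear respiratory chain genes 68 were above 0 (median 0.13), with 2 higher at an unadjusted p under 0.05, a cytochrome c gene cycsb (0.61, SE 0.26) and ATP5MC3 of the ATP synthase (0.40, SE 0.18), against 1.33% of all tested genes, and with 0 lower; with the block 5 were higher and 1 lower, against 2.98% and 2.88%. Of the 13 protein-coding transcripts of mitochondrial DNA 11 were above 0 (median 0.09), with MT-CYB at 0.20 (SE 0.24). Of 21 mitochondrial chaperone and stress genes 14 were above 0 (median 0.16), led by the chaperone gene trap1 (0.89, SE 0.32, edgeR adjusted p = 1.0). None of these lists held a gene called over all genes, with or without the block.

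Of the 79 cytosolic ribosomal protein genes 3 were above 0, with a median of -0.27, and 0 were called. At an unadjusted edgeR p under 0.05, 4 of the 79 were lower and 0 higher, against 1.67% and 1.33% of all tested genes. With the block 23 were lower (29.1%, against 2.88% of all tested genes) and 0 higher (against 2.98%), with a median of -0.33. As a percent of their summed CPM, the summed CPM of the 75 mitochondrial genes was 5.53, 4.87, 4.55 and 4.88 in siblings 1 to 4 and 8.24, 5.27, 7.43 and 7.78 in mutants 1 to 4. Mutant 2 lay within the siblings and the other mutants lay above them, and the mutant was higher in each pair. The 4 siblings averaged 4.96% ± 0.41 (SD) and the 4 mutants 7.18% ± 1.32 (SD). Both terms of this ratio differed in their means, with overlapping groups, and neither difference was tested. The cytosolic sum was 56792 ± 6456 CPM in siblings (50628 to 64363) and 46383 ± 13088 CPM in mutants (32760 to 63443). Against the mitochondrially encoded transcripts the members' sum was 11.7% ± 2.04 in siblings and 12.8% ± 0.828 in mutants, a difference within the spread.

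The transcript of the mutated gene and markers of the makeup of the sorted cells were set beside these values. Whether either bears on them was not tested. The ddx21 transcript averaged 312 ± 51.4 CPM over the 4 siblings and 221 ± 40.0 CPM over the 4 mutants (± SD). Its log2 fold change was -0.50 (SE 0.21, edgeR adjusted p = 1.0). The p53 target list, 15 genes of which 13 were above 0, had a median of 0.70. At an unadjusted edgeR p under 0.05, 6 of the 15 were higher (1.33% of all tested genes) and 0 lower (1.67%). With the block 8 were higher (2.98%) and 1 lower (2.88%). All 21 pan-endothelial and 17 lymphatic and venous marker genes were measured. Of the pan-endothelial genes 3 were above 0 (median -0.14), with sums of 6251 to 14111 CPM in siblings and 4853 to 13473 CPM in mutants. Of the lymphatic and venous genes 4 were above 0 (median -0.29). Their sums were 3020.4 to 3763 CPM in siblings and 2465 to 4199 CPM in mutants. At an unadjusted edgeR p under 0.05, 2 of these 17 were lower, against 1.67% of all tested genes, and 0 higher. With the block 3 of the 17 were lower and 1 higher (2.88% and 2.98% of all tested genes). Of the 21 pan-endothelial genes 3 were then lower and 0 higher, against 0 and 0 without it. The pan-endothelial sum was lower in the mutant of pairs 1, 3 and 4, and the lymphatic and venous sum in pairs 1, 2 and 4. Of 19 epidermal markers 15 were above 0 (median 0.29). Their sums were 35936, 61201, 9847 and 2684 CPM in siblings 1 to 4 and 93235, 71387, 13378 and 4836 CPM in mutants 1 to 4. The pan-endothelial sums were 6507, 6251, 13139.5 and 14111 CPM in siblings 1 to 4 and 4853, 7062, 12279 and 13473 CPM in mutants 1 to 4. The epidermal sum was thus the larger in libraries 1 and 2 of both groups and in mutant 3. Of 14 skeletal muscle markers 13 were above 0 (median 0.42), with sums of 1410.2 to 6414 CPM and 2361 to 7667 CPM. Of 22 fibroblast and cartilage markers 15 were above 0 (median 0.65), with sums of 557 to 3025 CPM and 788 to 5964 CPM. In TMM-scaled CPM the epidermal sum and the fibroblast and cartilage sum were higher in the mutant of each pair, as was the members' sum. The nerve sum was lower in the mutant of each pair. The muscle sum was higher in pairs 1, 2 and 3. With the block, 6 of the 19 epidermal, 6 of the 14 muscle and 6 of the 22 fibroblast and cartilage markers were higher at an unadjusted edgeR p under 0.05. That compares with 2.98% of all tested genes, and 0 of these markers were lower. Without the block 0, 1 and 1 were higher, against 1.33% of all tested genes.

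For liver and yolk the single genes and their sum did not share a direction. Of 25 such markers 2 were above 0 (median -3.06), while their sum was higher in the mutant of pairs 1, 2 and 3, at 2792 to 25303 CPM in siblings and 1886 to 37638 CPM in mutants. The 14 exocrine pancreas markers had a median of -4.55, with 0 above 0. They summed to 58386 CPM in sibling 4 and to 116 to 1362 CPM in the other 7 libraries. At an unadjusted edgeR p under 0.05, 15 of the 25 liver and yolk markers and 13 of the 14 pancreas markers were lower. That compares with 1.67% of all tested genes, and 0 of either list were higher. With the block 17 liver and yolk markers were lower and 2 higher, and 9 pancreas markers were lower and 0 higher (2.88% and 2.98% of all tested genes). The median was -0.59 for erythroid cells (12 genes, 3 above 0), -0.01 for leukocytes (9 genes, 4 above 0), -0.43 for nerve (16 genes, 5 above 0) and -0.59 for neural crest and pigment cells (8 genes, 2 above 0). At an unadjusted edgeR p under 0.05, 2, 2, 2 and 0 of these were lower (1.67% of all tested genes) and 0 higher (1.33%). The mutant had the lower erythroid sum in pairs 1, 3 and 4, leukocyte sum in pairs 2 and 4, and neural crest and pigment sum in pairs 1 and 2. No gene of any of these lists was at 0 reads in every library. The part of these other cell types in the members' values was not tested.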

How the data were processed

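The authors deposited raw read counts per Ensembl gene for 8 libraries, whole numbers that sum to 38459219 to 51173007 per library. The submitters' processing notes name GRCz11 as genome build and list featureCounts, Subread 2.0.0, edgeR and FastQC. Filters, annotation release and strand setting were not given in the sources used here. A deposited log2 CPM table, named as batch-corrected, equals log2(CPM + 1) of those counts (largest difference 5e-14 over 260160 values), so it holds no such correction, and it served only for limma-trend.

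Models were fitted to these counts in R 4.3.3, and all summaries were made from those fits and counts. Genes had to pass filterByExpr of edgeR 4.0.16 at a minimum count of 10 and a minimum total of 15. After TMM scaling the robust quasi-likelihood model was fitted with genotype alone, and p-values were adjusted by Benjamini-Hochberg over all 18549 tested genes. Fold changes give mutant relative to sibling, with standard errors from the F statistic, and CPM are TMM-normalised. DESeq2 1.42.0 and limma 3.58.1 were alternatives. The fit was run on simulated data with known changes. These were larger than the fold change of any member in the main fit, so the run cannot tell whether shifts of the members' size would be found.

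Titles gave the groups and the replicate numbers. Over all tested genes the deviations from the group means correlated in every pair of the same number (r = 0.22, 0.28, 0.18 and 0.30 in pairs 1 to 4), so the numbers were taken to pair the libraries. No 2 replicates looked like one library, since their counts differed by a chi-square of 121 to 897 for each degree of freedom.

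Symbols came from a name table and are written as in the RefSeq table of the assembly GRCz12tu, which held all 75. There 23 of the 75 overlap another gene, and reads of overlapping genes cannot be assigned with certainty. No coordinates or sequences were used. The rule for members used names and no measured values, but it and the gene lists were set with earlier results of these data known. The genes named were, by p, the first 6 upward and the first 6 downward, those without overlap between groups, the 5 with the highest and the 5 with the lowest CPM, 15 fixed members and mrps35, added after its values were seen, 31 in all, with up to 3 genes of each other list. Symbols with more than 3 identifiers were left out of the lists.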

Additional observations from a re-analysis of the deposited data

Results flagged for a closer look

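In 7 of 70 groups of 4 libraries, taken over the 31 named genes and the summed levels, 1 library stood far from the other 3 of its group; chance gives about 1 in 20. In siblings these were mrpl43 in sibling 2 (21.1 CPM, the others 11.6 to 13.1), mrps30 in sibling 4 (85.3 CPM, the others 114 to 117), mrpl3 in sibling 3 (92.9 CPM, the others 52.5 to 54.5) and mrps2 in sibling 4 (33.5 CPM, the others 47.3 to 47.9). In mutants they were mrpl2 in mutant 3 (95.5 CPM, the others 85.0 to 85.4), mrps16 in mutant 1 (10.2 CPM, the others 17.7 to 18.1) and mrps18a in mutant 4 (18.5 CPM, the others 44.7 to 46.3).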

How the results depend on the processing

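Of 75 members 0 were called at an adjusted p under 0.05 in the main analysis and in each of the 16 alternatives. Over all genes edgeR called 0, against 160 by DESeq2, 2 by limma-trend on the deposited log2 CPM and 1 without the filter on low counts. The 3 members higher at an unadjusted p under 0.05 (1.33% of all tested genes) became 6 with DESeq2 (1.51% of all 32520 genes). They became 6 with the replicate block (2.98% of all tested genes), 5 with limma-voom with quality weights (1.83%) and 1 with limma-trend (1.63%). When each library was left out in turn they became 0 to 7, against 0.961% to 1.66% of all genes tested in those fits. In each of these fits 0 members were lower, against 1.52% to 3.04% of all genes. The members' median log2 fold change of 0.17 was 0.14 to 0.16 under the other scalings, filter and tools and with the block, 0.22 without mutants 1 and 4 and sibling 4, and 0.096 (without sibling 4) to 0.31 (without mutant 4) when 1 library was left out. The same leave-outs gave 0.12 to 0.32 for the mrpl genes and, for the mrps genes, 0.036 without sibling 4, 0.073 without mutant 3, 0.18 without sibling 2 and 0.25 without mutant 4. Of the 31 named members 17 kept the sign of their fold change in all 16 alternatives and 14 did not, each of the latter being within about its standard error of 0 except mrps30. The cause of these changes was not tested. Except for the number of members at an unadjusted p under 0.05, the block changed no count of members called. The lowest count of a member in a library was 18 reads, for mrpl1 in mutant 2, where counting error weighs most.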
